A study of Mus musculus with 2 samples.

Results

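The transcripts described here are those of the mitochondrial genome, taken as all columns of the UMI table (unique molecular identifiers, 1 per captured RNA molecule) whose name starts with mt-. They numbered 13 of 27031 columns and were the 13 protein-coding genes of mouse chromosome MT. The annotation also lists 2 rRNA and 22 tRNA genes there, and the table has 0 columns for either kind.

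RNA was measured in single CD45+ leukocytes of MC38 tumours, a colon carcinoma line of C57BL/6 origin grown under the skin of female C57BL/6 mice aged 6 to 8 weeks. Mice received vehicle (control) or telmisartan, a blocker of the angiotensin II type 1 receptor, at 5 mg/kg by gavage daily from implantation, and tumours were taken on day 13. Live CD45+ cells were sorted, those of 5 mice per group were pooled, labelled with Sample Tag 1 (control) or Sample Tag 2 (telmisartan) and captured together on the BD Rhapsody system. There were no replicates of either pool, so intervals (95%) are for counting error only and no difference between the pools was tested.

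Mitochondrial DNA encodes core subunits of the respiratory chain complexes I, III and IV and of the ATP synthase, complex V, while the nucleus encodes their other subunits and every protein that copies, transcribes and translates mitochondrial DNA. Each strand is transcribed as a long RNA that is cut at the tRNAs between the genes and most of the messages are then polyadenylated, so poly(T) capture picks them up. The message of mt-Nd6, from the other strand, is reported to lack a stable poly(A) tail in human cells, so its capture may differ. In single cells the share of mt- UMIs is widely used to set apart damaged cells, and it also differs between cell types with their content of mitochondria.

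The table held 107214449 UMIs in 20726 putative cells, of which 13691263 (12.8%) were mt- UMIs. The control pool had 8738 cells with 54619115 UMIs, 11.2% of them mt-. The telmisartan pool had 10222 cells with 42401764 UMIs, 14.99% of them mt-. Of cells with 150 to 5000 genes, 2623 of 7701 control cells (34.1%, 33.0 to 35.1) and 4433 of 9266 telmisartan cells (47.8%, 46.8 to 48.9) had over 20% mt- UMIs, the limit used to separate 2 sets of cells below. These shares depend on the gene minimum, and with at least 500 genes they were 14.1% and 23.2%.

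The CD45 label was checked with Ptprc, the gene of CD45. Among cells at or under 20% mt-, 86.2% of control and 77.1% of telmisartan cells had a Ptprc UMI, at median depths of 8335 and 5993 nuclear-encoded UMIs. Over 20% the shares were 21.01% and 18.9%, at median depths of 386 and 462. Per 1000000 nuclear-encoded UMIs the level of Ptprc was closer between the sets, 475 and 421 in control and 424 and 368 in telmisartan, and no set of cells that should lack it was available as a background. Macrophage markers were detected 11 of 11 in each set, led by Lyz2, and summed to 18851 at or under and 15601 over 20% in control on that scale, and to 19054 and 16297 in telmisartan.

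Markers of cells outside the sort differed between the sets to unequal degrees. The 4 fibroblast genes, all detected, summed to 8.22 per 1000000 nuclear-encoded UMIs at or under and 122 over 20% in control (led by Col3a1), and to 14.7 and 189 in telmisartan (led by Col1a1). The 4 erythroid genes, led by Hba-a1 in control, summed to 4.21 and 30.8 in control and to 0.902 and 4.45 in telmisartan. Per cell with no scaling, erythroid UMIs were fewer over 20%. They numbered 62 in 2623 control cells, against 187 in 5078, and 15 in 4433 telmisartan cells, against 29 in 4833. Fibroblast UMIs were more per cell over 20% (246 against 365 in control and 637 against 472 in telmisartan, in the same cells). Shares of cells with a UMI of these genes were not compared between the sets, since a cell over 20% had far fewer nuclear-encoded UMIs in which to find one. The 4 epithelial genes, led by Epcam, summed to 4.03 and 1.99 in control and to 2.02 and 3.56 in telmisartan. Epcam had 173 of their 179 UMIs in control cells at or under 20% and is also among the leading genes of a dendritic-like cluster, so this sum does not single out cells outside the sort. Of the 4, Krt8, Krt18 and Krt19 had 0 UMIs in cells over 20%, which allows a UMI of each in up to 0.114% of control and 0.0677% of telmisartan cells (3 counts over the cells). The 4 endothelial genes, led by Pecam1, differed less, at 24.1 and 37.3 in control and 22.9 and 30.2 in telmisartan. Per cell with no scaling their UMIs were fewer over 20% (75 against 1071 in control and 102 against 738 in telmisartan). The part of these cells in the mt- values was not tested.

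Cells on either side of the limit differed far more in nuclear-encoded than in mt- UMIs. The median mt- UMIs per control cell were 661 (quartiles 365 to 976) at or under and 661 (409 to 964) over 20%, while the median nuclear-encoded UMIs were 8335 and 386. In telmisartan cells the mt- medians were 511 (278 to 810) and 591 (398 to 873), and the nuclear-encoded medians 5993 and 462. A typical cell over the limit thus held mitochondrial messages in numbers like those of a typical cell under it, beside far fewer nuclear ones, with 150 to 5000 genes required. Without gene limits the log2 ratio of the mt- medians, over to at or under 20%, was −0.26 in control and 0.08 in telmisartan.

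The same showed in means, as log2 ratios of cells over to cells at or under 20%. The ratio of mt- UMIs per cell was 0.09 in control and 0.25 in telmisartan, and that of nuclear-encoded UMIs −3.51 and −3.13 (−2.35 and −2.08 with at least 500 genes). Without gene limits the ratio of mt- UMIs turned to −0.08 in control and was 0.15 in telmisartan, so its direction in control rests on those limits. Reads of the Sample Tags, antibodies on the cell surface, did not follow the nuclear UMIs, with ratios of 1.00 and 0.39. Since the limit is a share of mt- UMIs, these ratios describe which term of the share differed and are not a finding about the limit.

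Cells just inside and just outside the limit had values of the same order. Control cells at 19 to 20% (73 cells) had medians of 550 mt- and 2305 nuclear-encoded UMIs, and those at 20 to 21% (72 cells) 475 and 1845. Telmisartan cells had 514 and 2128 inside (97 cells) and 524 and 2039 outside (83 cells).

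Over 11 bins of the mt- percent the nuclear-encoded UMIs were lower from bin to bin above 5 to 10%, while the mt- UMIs moved within a narrower range. Control cells had medians of 334.5 mt- UMIs at 0 to 5%, 799 at 10 to 15%, 432 at 50 to 60% and 1242 at 80 to 100%. Their nuclear-encoded medians were 9992 at 5 to 10% and 214 at 80 to 100%. A cell at 80 to 100% needs many mt- UMIs to pass the minimum of 150 genes. The cells this minimum removed had medians of 404 mt- UMIs in control and 391 in telmisartan, at median mt- percents of 79.5 and 78.3. The part of the minimum in the high value of that bin was not tested. In telmisartan cells the mt- medians were 235.5 at 0 to 5%, 634 at 10 to 15%, 487 at 50 to 60% and 1276.5 at 80 to 100%, and the nuclear-encoded medians 7604 at 5 to 10% and 227 at 80 to 100%. At 15 to 20% the mt- medians of the pools nearly met, at 536 in control and 539.5 in telmisartan, whereas at 5 to 10% they were 749 and 582.

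**Figure D1:**
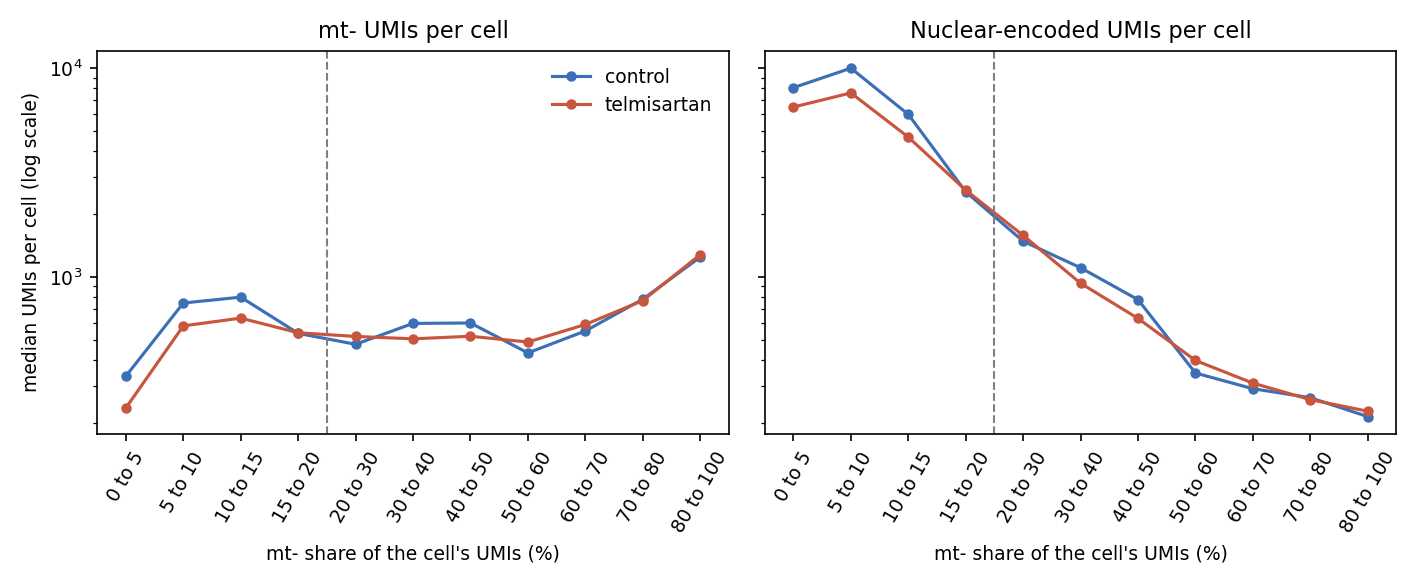
Median mt- and nuclear-encoded UMIs per cell (log axis) by the percent of mt- UMIs in the cell, for both pools. The nuclear-encoded medians of control cells lie at 9992 at 5 to 10% and at 214 at 80 to 100%, while the mt- medians stay between 334.5 and 1242.

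The mt- genes were described by the complex their protein belongs to, with shares of all mt- UMIs in control cells at or under 20% unless another set is named. Complex IV, cytochrome c oxidase, took 58.6% of mt- UMIs, complex I 18.95%, complex V 14.6% and complex III 7.81%. In control cells over 20% the shares were 58.0%, 19.5%, 14.4% and 8.004% in the same order. The division among the complexes was thus close to equal on the 2 sides of the limit.

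Complex I, which takes electrons from NADH, has 7 of the 13 genes. The subunit at the quinone end, mt-Nd1 (ENSMUSG00000064341, chrMT:2751-3707), made up 4.55% of mt- UMIs. Of the proton-pumping subunits, mt-Nd2 (ENSMUSG00000064345, chrMT:3914-4951) made up 3.30%, mt-Nd4 (ENSMUSG00000064363, chrMT:10167-11544) 6.20% and mt-Nd5 (ENSMUSG00000064367, chrMT:11742-13565) 3.02%. Fewer UMIs fell on the small membrane subunits. They were mt-Nd3 (ENSMUSG00000064360, chrMT:9459-9806) at 1.08%, mt-Nd4l (ENSMUSG00000065947, chrMT:9877-10173) at 0.712% and mt-Nd6 (ENSMUSG00000064368, chrMT:13552-14070), the only member on the minus strand, at 0.0865%.

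Complex III has 1 mitochondrial gene, mt-Cytb (ENSMUSG00000064370, chrMT:14145-15288), whose protein cytochrome b carries the quinone sites of the complex, at 7.81%. In complex IV, mt-Co1 (ENSMUSG00000064351, chrMT:5328-6872), whose protein holds the site where oxygen is reduced, made up 35.8%. The subunit that receives electrons from cytochrome c, mt-Co2 (ENSMUSG00000064354, chrMT:7013-7696), made up 15.8%, and the core subunit mt-Co3 (ENSMUSG00000064358, chrMT:8607-9390) 7.01%. In complex V, mt-Atp6 (ENSMUSG00000064357, chrMT:7927-8607), part of the proton channel, made up 14.4% and the small subunit mt-Atp8 (ENSMUSG00000064356, chrMT:7766-7969) 0.2002%.

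Each UMI stands for 1 captured molecule, so the members were ranked by their UMIs with no division by gene length, and capture may differ between messages. Genes that overlap or share a message, such as mt-Atp8 with mt-Atp6 and mt-Nd4l with mt-Nd4, were counted apart. Their ranks are thus of UMIs assigned to each gene and not of the abundance of messages. In control cells at or under 20% mt-Co1 had 1281717 UMIs, mt-Co2 567132 and mt-Atp6 515939, and these 3 stood apart from the rest. They were followed by mt-Cytb with 279516, mt-Co3 with 250904 and mt-Nd4 with 221873. The fewest were those of mt-Atp8, 7168, and mt-Nd6, 3099.

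**Figure D2:**
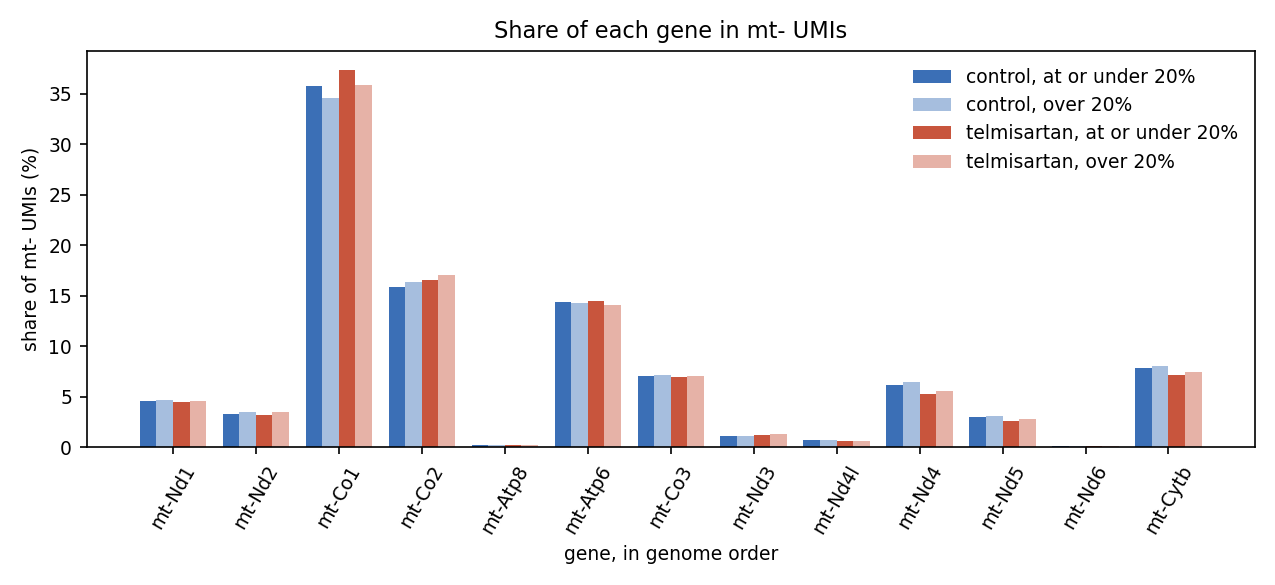
Share of each mt- gene in mt- UMIs, for both pools and both sets of cells, in genome order. In control cells at or under 20%, mt-Co1 lies at 35.8%, mt-Co2 at 15.8%, mt-Atp6 at 14.4% and mt-Nd6 at 0.0865%.

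A count for 1 gene can hold molecules of another where genes share sequence. On the plus strand mt-Atp8 and mt-Atp6 overlap by 43 bases (7927 to 7969), mt-Nd4l and mt-Nd4 by 7 (10167 to 10173) and mt-Atp6 and mt-Co3 by 1. On opposite strands, mt-Nd5 and mt-Nd6 overlap by 14 bases, and whether counting used the strand is not stated in the sources used, so molecules of mt-Nd6 and RNA antisense to it could not be told apart. Near copies of all 13 members (at least 80% identity over at least 100 bases) were found in transcripts of 28 other annotated genes, for 7 members with at least 99% identity. None of the 28 has a column in the table, and how molecules that match both places were counted is not stated.

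The messages of mt-Co3, mt-Nd4 and mt-Cytb share a feature of sequence. Their annotated genes end in a lone T, and the stop codon is completed by the poly(A) tail. The last 30 bases of each, from GRCm38 on the plus strand (chrMT:9361-9390, chrMT:11515-11544 and chrMT:15259-15288), are shown with that T in capitals, to show how these messages end. In macrophage-like cells the log2 ratio of shares was −0.24 for mt-Nd4, −0.13 for mt-Cytb and −0.01 for mt-Co3.
mt-Co3 end: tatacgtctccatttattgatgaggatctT
mt-Nd4 end: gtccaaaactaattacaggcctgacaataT
mt-Cytb end: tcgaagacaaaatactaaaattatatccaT

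The genes mt-Nd4l and mt-Nd4 lie on a single joint message, and their shared bases are shown in capitals at the end of mt-Nd4l (chrMT:10147-10173) and the start of mt-Nd4 (chrMT:10167-10193), both on the plus strand of GRCm38, because both members had lower shares in telmisartan cells.
mt-Nd4l end, shared: caaaatctcaacctactacaATGCTAA
mt-Nd4 start, shared: ATGCTAAaaattattcttccctcacta

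Per cell, the median UMIs in control cells at or under 20% were 239 for mt-Co1, 104 for mt-Co2, 92 for mt-Atp6, 39 for mt-Nd4, 4 for mt-Nd4l, 1 for mt-Atp8 and 0 for mt-Nd6. In telmisartan cells they were 194, 84, 72, 26, 2, 1 and 0 for the same genes. How detection of the scarce genes compared between the pools depended on depth, in different ways by gene. The share of cells with an mt-Atp8 UMI was 66.0% in control and 56.6% in telmisartan, but 14.3% and 14.5% once each cell was thinned to 1000 UMIs. For mt-Nd6 the direction turned, from 39.9% in control and 35.9% in telmisartan to 6.68% and 8.11% when thinned. For mt-Nd4l the thinned shares were 39.1% (37.7 to 40.4) in control and 35.6% (34.2 to 36.9) in telmisartan, and for mt-Nd3 52.7% (51.4 to 54.1) and 57.6% (56.2 to 59.0). Thinning left out 50 control and 86 telmisartan cells, and no cell type that lacks mt- genes was available as a background. At equal depth mt-Nd4l was thus in fewer and mt-Nd3 in more telmisartan cells than control cells.

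The comparison of the pools asked whether mt- messages differed with telmisartan in the same kind of cell, and it was made in macrophage-like cells, the most numerous class (3725 control and 3343 telmisartan cells at or under 20%). Of their UMIs 7.39% (7.38 to 7.40) were mt- in control and 7.99% (7.978 to 7.999) in telmisartan. The summed mt- log2 ratio in counts per 1000000 UMIs (CPM) was 0.11 (0.11 to 0.12), and it was −0.22 as UMIs per cell with no scaling, where the median of all genes was −0.38 in place of −0.04. Relative to the median of all genes the mt- sum was above it on both scales. Among macrophage-like cells at or under 10% mt- it was 0.02 in CPM, with 7 of 13 members lower, so the difference in the sum depends on where the limit is set. The macrophage-like cells had median mt- UMIs of 711 in control and 589 in telmisartan and median nuclear-encoded UMIs of 8807 and 6716. With each cell thinned to 1000 UMIs the summed log2 ratio was 0.12, with 5 of 13 members lower.

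Of the 13 genes, 5 had lower CPM in telmisartan macrophage-like cells, beside 57.3% of all genes tested. Past 1.5-fold there were 0 lower and 0 higher members, beside 2.17% and 4.4% of all genes. The members thus differed by small amounts and in both directions. The count of lower members was 4 with totals without mt- and ribosomal protein genes and as the mean per 10000 UMIs, where mt-Atp8 turned to 0.00, and 13 as UMIs per cell, so each higher value in CPM below was a lower one on that scale.

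In complex I the members went in opposite directions. The level of mt-Nd4 was 4661 CPM in control and 4275 in telmisartan, a log2 ratio of −0.12, that of mt-Nd4l 540 and 466 CPM (−0.21) and that of mt-Nd5 2254 and 2066 CPM (−0.13). In contrast mt-Nd3 had 817 and 949 CPM (0.22) and mt-Nd6 63.8 and 78.1 CPM (0.29). The quinone-end subunit mt-Nd1 and the pump subunit mt-Nd2 both had 0.07. Summed over complex I these gave −0.02, so the sum hid members on either side of 0.

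In the other complexes mt-Cytb had 5870 CPM in control and 5790 in telmisartan (−0.02). The oxygen-reducing mt-Co1 had 26186 and 29619 CPM (0.18), mt-Co2 11635 and 13186 CPM (0.18) and mt-Co3 a log2 ratio of 0.10. In complex V mt-Atp6 had 0.12 and mt-Atp8 −0.01. Summed, complex III had −0.02, while complex IV had 0.17 and complex V 0.12 in CPM but −0.17 and −0.22 as UMIs per cell.

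The shares of mt- UMIs compare the members with each other and do not depend on the scaling for nuclear UMIs. In macrophage-like cells mt-Nd4 was 6.31% of mt- UMIs in control and 5.35% in telmisartan, a log2 ratio of −0.24 (−0.25 to −0.23). For mt-Nd5 the log2 ratio of shares was −0.24 (−0.25 to −0.22), for mt-Nd4l −0.32 (−0.36 to −0.29) and for mt-Cytb −0.13 (−0.14 to −0.12). These 4 genes are neighbours at the far end of the genome, from 9877 to 15288, and are all the plus-strand coding genes there, with mt-Nd6 among them on the other strand. Outside that stretch mt-Atp8 had the lowest log2 ratio of shares, −0.12 (−0.18 to −0.06).

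Shares that were higher in telmisartan macrophage-like cells were those of mt-Co1, mt-Co2, mt-Nd3 and mt-Nd6. The log2 ratios of shares were 0.07 for mt-Co1 and mt-Co2, 0.10 for mt-Nd3 and 0.18 (0.09 to 0.27) for mt-Nd6. The remaining members, mt-Nd1 and mt-Nd2 at −0.04, mt-Co3 at −0.01 and mt-Atp6 at 0.01, lay near equal shares. By complex the log2 ratios of shares were −0.13 for I, −0.13 for III, 0.06 for IV and 0.00 for V.

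**Figure D3:**
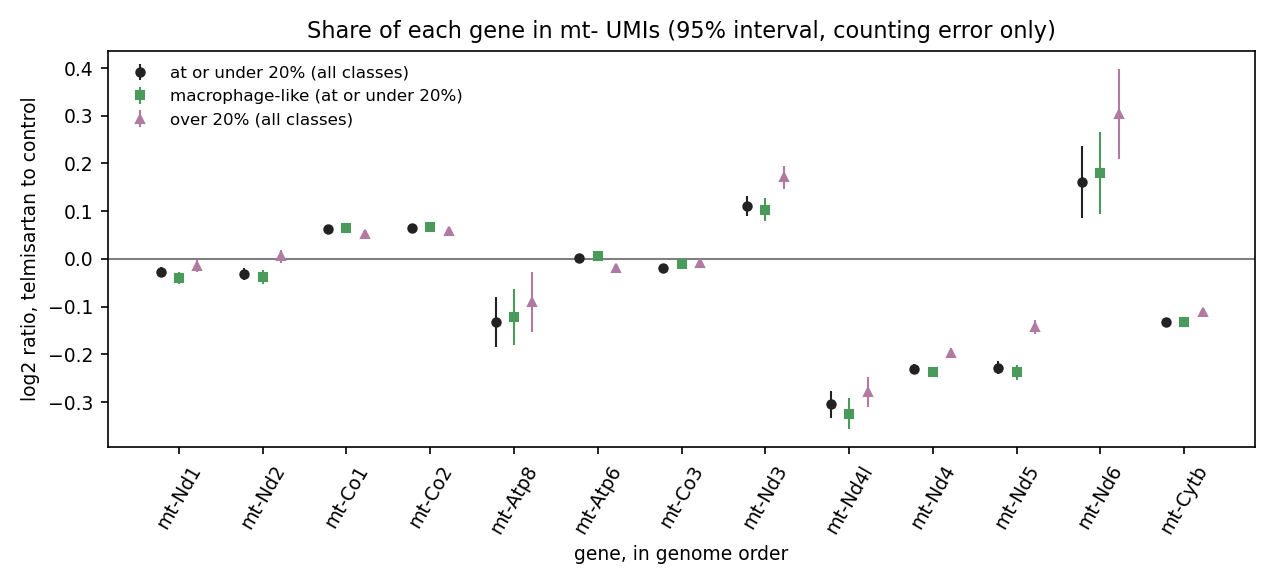
Log2 ratio, telmisartan to control, of each gene's share of mt- UMIs, in genome order, for all cells at or under 20%, macrophage-like cells and all cells over 20% (points, with 95% intervals for counting error only). In each of the 3 sets mt-Nd4l, mt-Nd4, mt-Nd5 and mt-Cytb lie below 0 and mt-Co1, mt-Co2, mt-Nd3 and mt-Nd6 above it.

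Over all cells at or under 20% the result was much the same as in the macrophage-like cells within them. There 5 of 13 members had lower CPM (55.9% of all genes), with 0 lower and 0 higher past 1.5-fold (1.68% and 4.7%), and as UMIs per cell 13 were lower while the median of all genes was −0.42.

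In cells over 20% mt- UMIs, 10 of 13 members had lower CPM in telmisartan (11 under each of the other scalings tried, where mt-Co2 was lower as well), beside 43.1% of all genes, and 0 were lower and 0 higher past 1.5-fold (1.37% and 2.92%). The summed log2 ratio was −0.05, from 49.5% of UMIs in control and 47.7% in telmisartan. By complex it was −0.14 for I, −0.17 for III, −0.01 for IV and −0.07 for V. The 3 members not lower were mt-Co2 at 0.00, mt-Nd3 at 0.12 and mt-Nd6 at 0.25, while mt-Nd4l had −0.33, mt-Nd4 −0.25, mt-Nd5 −0.20 and mt-Cytb −0.17. Among the 10 counted as lower, mt-Co1 lay at −0.002 (−0.006 to 0.002), with 0 inside its interval. The order of the members was thus close to that under the limit, at a different total.

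The differences in share were then followed over the 11 bins of mt- percent. The shares of mt-Nd4, mt-Nd4l, mt-Nd5 and mt-Cytb were lower in telmisartan in 11 of 11 bins, with the interval below 0 in 11, 11, 10 and 11 of them. Those of mt-Co1, mt-Co2 and mt-Nd3 were higher in 11 of 11 bins, with the interval above 0 in 11, 10 and 10, and that of mt-Nd6 was higher in 10 of 11, with the interval above 0 in 6. Apart from mt-Nd6, the pools thus differed the same way in these members in cells with many and with few nuclear-encoded UMIs, and the bins are not replicates, since each holds cells of the same 2 pools. For mt-Nd4 the share ranged from 5.56% to 6.76% over the bins in control and from 4.75% to 5.96% in telmisartan.

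**Figure D4:**
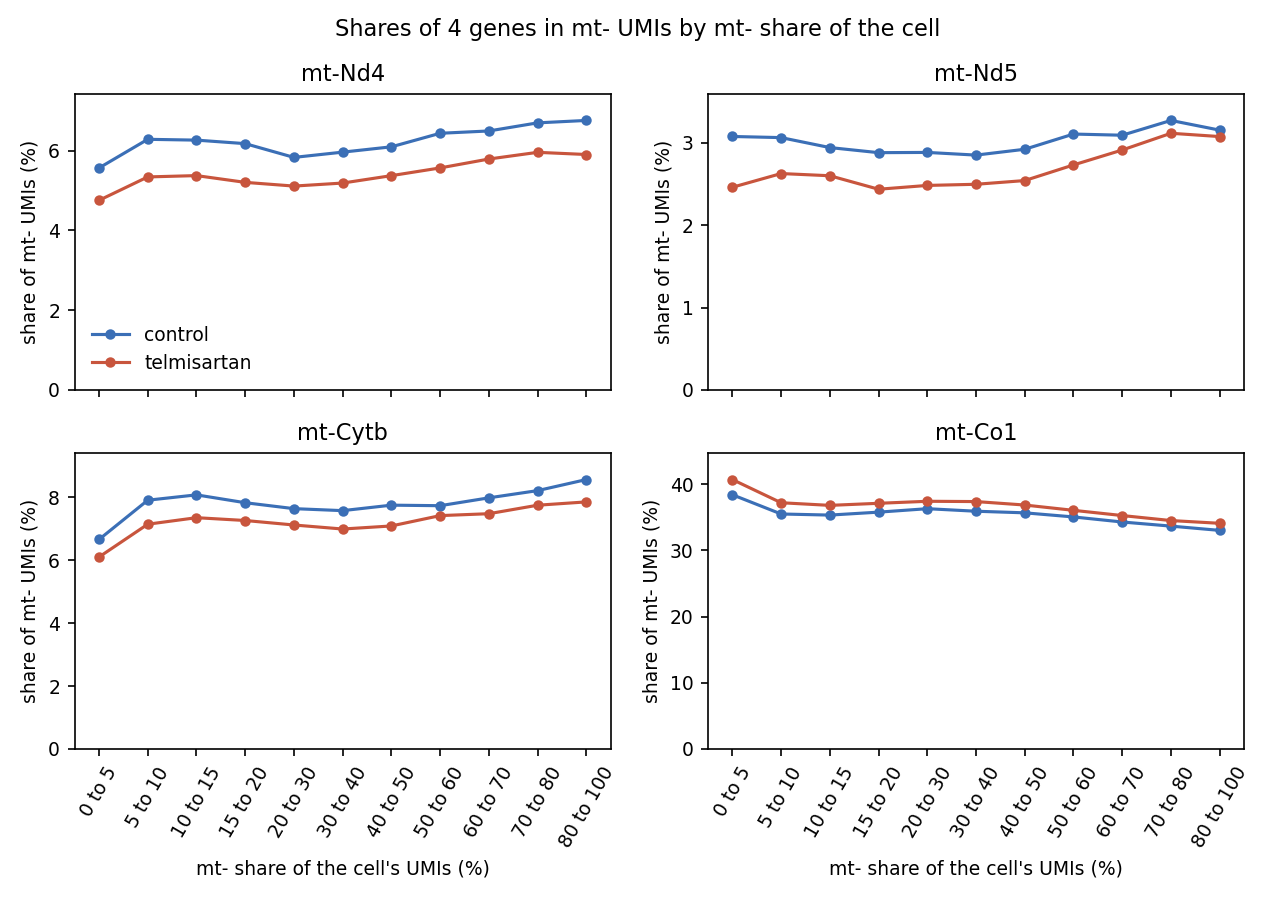
Share of mt-Nd4, mt-Nd5, mt-Cytb and mt-Co1 in mt- UMIs by the percent of mt- UMIs in the cell, for both pools. In each of the 11 bins the telmisartan point lies below control for mt-Nd4, mt-Nd5 and mt-Cytb and above it for mt-Co1.

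Within each pool the composition also differed a little between the sets of cells. The log2 ratio of the share over to at or under 20% was −0.05 in control and −0.06 in telmisartan for mt-Co1, −0.30 and −0.15 for mt-Nd6 and −0.19 and −0.15 for mt-Atp8. It was positive for mt-Nd2, 0.07 and 0.10, for mt-Nd3, 0.06 and 0.12, and for mt-Nd5, 0.03 and 0.11. None of these members had its share differ by 1.5-fold between the sets.

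Single cells varied in composition beyond counting error for most members. In cells with at least 200 mt- UMIs, the SD of the mt-Co1 share was 2.27 to 2.48 times the SD that counting alone gives, over the 2 pools and 2 sets, and that of mt-Cytb 1.72 to 1.87 times. For the scarce members the spread was close to counting error, at 0.99 to 1.03 times for mt-Atp8 and 1.05 to 1.14 times for mt-Nd6, so no variation between cells was detectable for mt-Atp8 at this depth.

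Cell classes differed in how much of their RNA was mt-. At or under 20%, dendritic-like cells (365 control and 296 telmisartan) had 6.68% mt- UMIs in control and 6.47% in telmisartan. T-like cells (67 and 113) had 7.51% and 8.65%, and neutrophil-like cells (48 and 24), short-lived cells known for few mitochondria, had 3.70% and 2.86%. Neutrophil-like cells thus had the lowest mt- percent of the named classes in each pool. In T-like and macrophage-like cells it was higher in telmisartan, and in the other named classes lower. The dendritic-like clusters went both ways, with 5.75% and 6.31% in cluster 11, 6.87% and 6.67% in cluster 8 and 6.67% and 5.94% in cluster 12. As medians per cell the values lay at 7.95% and 8.08% in T-like and at 1.98% and 1.45% in neutrophil-like cells, so for T-like cells the difference was small by that measure.

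Macrophage-like cells came from several clusters, and the largest of these clusters was not the same in the 2 pools. Cluster 2, with Chil3 and Ccr2 among its leading genes, held 1108 control and 352 telmisartan cells, with 6.75% and 7.90% mt- UMIs. Cluster 1, with Areg and Il1a, held 685 and 1124 cells, with 6.71% and 7.67%. In these largest clusters, which the pools fill unequally, the mt- percent was higher in telmisartan. Cluster 3, with Gas6, Cbr2 and Folr2, had 9.10% and 9.25%, and cluster 6, with cell cycle genes such as Ccna2, 8.09% and 8.56%. Cluster 7, with Cxcl9 and Gbp5, had 7.19% and 7.85% and cluster 9, with Ifit3, 6.80% and 7.77%. Only cluster 5, with Hmox1 and Gpnmb, was not higher in telmisartan among the macrophage-like clusters, at 5.92% and 5.87%. Cluster 4, with Ly6c2 and Plac8, had a median of 2200.5 UMIs and 12.2% and 10.7% mt- UMIs. It had 11 of 11 macrophage markers in at least 10% of its cells but stayed unnamed. Its depth was 0.315 of the median of its pools, with no macrophage marker among its leading genes.

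The composition differed in the same direction across most clusters, which are not replicates, since each holds cells of the same 2 pools. At or under 20% the mt-Nd4 share was lower in telmisartan in 13 of 13 clusters, that of mt-Cytb in 12, mt-Nd4l in 12 and mt-Nd5 in 11, while the mt-Co2 share was higher in 13 and that of mt-Co1 in 12. Over 20% it was lower in 7 of 7 clusters for mt-Nd4, mt-Nd4l and mt-Cytb and in 6 for mt-Nd5. At or under 20% the interval was below 0 in 11 clusters for mt-Nd4, 10 for mt-Cytb, 8 for mt-Nd4l and 11 for mt-Nd5. The lower shares were not confined to these 4 genes. That of mt-Co3 was lower in 10 of 13 clusters and in 5 of 7 over 20%, with the interval below 0 in 7 and 1. That of mt-Atp8 was lower in 12 of 13 clusters and in 7 of 7 over 20%, with the interval below 0 in 2 and 2. That of mt-Atp6 was lower in 7 of 7 over 20%, with the interval below 0 in 3. Among classes, the log2 ratio of CPM in dendritic-like cells was −0.25 for mt-Nd4, −0.26 for mt-Nd5, −0.30 for mt-Nd4l and −0.13 for mt-Cytb, beside 0.12 for mt-Nd1 and −0.03 for mt-Co1. In T-like cells the log2 ratios of shares were −0.97 (−1.26 to −0.68) for mt-Nd4l, −0.24 (−0.34 to −0.15) for mt-Nd4, −0.20 (−0.34 to −0.07) for mt-Nd5, −0.29 (−0.37 to −0.20) for mt-Cytb and 0.09 (0.05 to 0.13) for mt-Co1. As CPM, where the mt- sum was higher, they were −0.77, −0.04, 0.00, −0.08 and 0.29 in the same order. In neutrophil-like cells the log2 ratio of the mt-Nd4l share was 0.53 (−0.83 to 1.80), from few UMIs.

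Clusters of cells over 20% spanned a wide range of mt- percent. They mostly went by number, since the macrophage name was not used for cells over the limit. Of 11 macrophage markers, 6 in cluster 4 and up to 11 in cluster 2 were found in at least 10% of a cluster's cells. Cluster 1 (1080 control and 1671 telmisartan cells) had 69.7% and 65.1% mt- UMIs and cluster 2 (650 and 1162 cells) 32.2% and 33.4%. Cluster 4, led by stromal and cell cycle genes such as Cald1, Sparc and Top2a, had 77.7% and 74.9%, and cluster 6, T-like, 48.2% and 40.3%. Cluster 3, led by Col1a1 and Col1a2, had 68.3% and 62.1% (264 and 530 cells), cluster 5 34.1% and 33.8% and cluster 7, the smallest, 56.1% and 64.6%. The pools thus differed in both directions within these clusters.

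Nuclear genes that serve the mitochondrial genome were compared in the same macrophage-like cells, in CPM, and every list median given here was negative as UMIs per cell, where the median of all genes was −0.38. In CPM 57.3% of all genes tested were lower, with a median of −0.04, and the counts below are to be read beside these. Of genes for transcription and upkeep of mitochondrial DNA, 10 of 14 were lower (median −0.18). Among them were the elongation factor Tefm (−0.50), the factor Tfb1m (−0.46) and Tfam (−0.35), which packs and activates mitochondrial DNA, while the nuclease Mgme1 had 0.18. Of genes for mitochondrial RNA processing and decay, 10 of 18 were lower (median −0.07), near that background, with the exoribonuclease Pnpt1 at −0.39 and Rexo2 at −0.34 and, on the other side, the helicase Supv3l1 at 0.61 and Fastkd5 at 0.97. These last 2 were past 1.5-fold, as were 4.4% of all genes on that side.

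Of biogenesis regulators 3 of 5 were lower, as in all genes (median −0.04, while the summed level had 0.03), with the coactivators Ppargc1b at −0.67 and Pprc1 at 0.41. Of mitochondrial ribosomal proteins, which translate the 13 messages, 60 of 77 were lower (median −0.16), the lowest being Mrps27 at −0.64 and Mrps2 at −0.53. In complex I 28 of 37 were lower (median −0.09), with Ndufv1 at −0.30, and in complex II, which has no mitochondrial gene, 4 of 4 (median −0.12), with Sdhc at −0.27.

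In complex III 6 of 9 nuclear-encoded genes were lower (median −0.11, but 0.04 in cells thinned to 1000 UMIs), in complex IV 7 of 11 (median −0.03, near that of all genes), with Cox7b at −0.32 and Cox8a at 0.08, and in complex V 12 of 15 (median −0.13), with Atp5b at −0.24 and Atp5d at 0.29. Complex IV thus had a mitochondrial sum of 0.17 beside a nuclear-encoded median of −0.03 and a nuclear-encoded sum of −0.07. Complex V had 0.12 beside a median of −0.13 and a sum of −0.09, the median of all genes being −0.04. Of stress response genes 3 of 9 were lower (median 0.05, while their sum had −0.09), the chaperonin Hspd1 at −0.50, with the transcription factor Atf4 at 0.34 and its targets Ddit3 at 0.60 and Trib3 at 0.70. Of cytosolic ribosomal proteins 44 of 84 were lower, with a median of 0.00 that turned to 0.01 without mt- and ribosomal protein genes in the totals. Of nuclear-retained RNAs 2 of 3 were lower (median −0.08, but 0.04 as the mean per 10000 UMIs and 0.16 when thinned), and Malat1, the most abundant, had 0.42 and brought their sum to 0.38.

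In cells over 20% several of these lists lay on the other side of 0. The median log2 ratio of CPM was 0.09 for mitochondrial ribosomal proteins (13 of 60 lower), 0.09 for complex I, 0.10 for complex III, 0.06 for complex IV (just under 0 as UMIs per cell), 0.07 for complex V and 0.18 for cytosolic ribosomal proteins (1 of 82 lower). It was −0.04 for complex II, −0.23 for biogenesis regulators (3 of 4 lower) and −0.37 for upkeep of mitochondrial DNA (2 of 2 lower, but 0.00 when thinned to 500 UMIs). For all genes tested it was 0.04, and 43.1% of them were lower. Since mt- UMIs are 49.5% and 47.7% of the total here, a lower mt- share raises nuclear-encoded CPM by construction.

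Nuclear-retained RNAs, which stay in the nucleus of an intact cell, were set beside the mt- percent, per 1000000 nuclear-encoded UMIs. Between cells over and at or under 20%, the log2 ratio of their sum was 2.27 in control and 1.94 in telmisartan. The median over the 3 tested was 1.17 in control and 1.27 in telmisartan, beside a median over all genes of 0.11 and 0.12. Per cell with no scaling these RNAs were fewer over 20% (34868 UMIs in 2623 control cells, against 159351 in 5078). All 3 of 3 tested were higher past 1.5-fold in each pool, beside 22.9% of all genes in control and 17.1% in telmisartan. Lower past 1.5-fold were 0 of 3, beside 10.7% and 6.06%. Of mitochondrial ribosomal proteins 52 of 77 were lower in control (median −0.18, beside 43% of all genes) and 44 of 77 in telmisartan (median −0.03, beside 40.6%). Nuclear-encoded complex I had medians of −0.18 and −0.05.

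Across the bins the share of Malat1, a nuclear long RNA, went up and down again. It was 0.268% of nuclear-encoded UMIs at 5 to 10% mt- in control, 2.57% at 40 to 50% and 0.475% at 80 to 100%. In telmisartan it was 0.344%, 2.43% and 0.330%. Cytosolic ribosomal protein messages were 8.97% in control and 10.98% in telmisartan at 40 to 50% and 12.4% and 13.3% at 80 to 100%. Among cells over 20% mt-, those at 40 to 50% thus had a higher share of Malat1 than those at 80 to 100% in both pools.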

How the data were processed

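The deposited counts of the UMI table (RSEC-adjusted molecules per gene and putative cell) and the deposited Sample Tag counts (reads per putative cell) were made by the authors with the BD Rhapsody WTA Analysis Pipeline 1.11, on GRCm38 with GENCODE M19 genes, and carry no normalization. All 20726 cells were listed in both tables, and 0.0794% of 8041345 Sample Tag reads were on tags other than 1 and 2. A cell was assigned to the tag with at least 75% of at least 10 tag reads. Cells needed 150 to 5000 genes, limits given by the study, and were split at 20% mt- UMIs over all UMIs of the cell. Positions, IDs and near copies came from GENCODE M21 (blastn 2.17.0).

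Percents of mt- UMIs use all UMIs, shares use mt- UMIs, and CPM uses all UMIs of the cells summed, except that the 2 sets of cells were compared per 1000000 nuclear-encoded UMIs. Intervals are exact: Clopper-Pearson for percents, Poisson for counts and conditional binomial for ratios. For the cell classes, Scrublet (scanpy 1.11.5) scored doublets, and the highest scores were removed to the number predicted from cells with split tags, over cells with enough tag reads: 942 of 9911 cells at or under 20% and 591 of 7056 over it. Cells were clustered in Seurat 5.3.0 without mt- genes (2000 variable genes, 30 components, 20 neighbors, resolution 0.5) and named from markers. Pools, sets, bins and sums by gene used all cells, without doublet removal. TMM factors came from edgeR 4.0.16. Other steps used Python 3.11.15, numpy 2.4.6, scipy 1.17.1, pandas 2.3.3, matplotlib 3.10.9 and R 4.3.3. Calculations were tested on simulated data.

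With 1 pool per group no test was possible. Genes needed 100 UMIs over the compared cells, and past 1.5-fold was counted. Named genes were all 13 mt- genes and, from each nuclear list (transcription and upkeep, RNA processing and decay, biogenesis regulators, mitochondrial ribosomal proteins, complexes I to V, stress response, nuclear-retained RNAs, cytosolic ribosomal proteins), some of the up to 3 highest and 3 lowest log2 ratios. The members and lists were chosen with earlier results of these data known. Alternatives covered the tag share, gene minimum, mt- limit, doublets, resolution and scaling.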

Additional observations from a re-analysis of the deposited data

Results flagged for a closer look

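In CPM the summed mt- level differed in direction between sets of cells under the same comparison of the pools. Its log2 ratio in CPM, telmisartan to control, was 0.11 in macrophage-like and 0.21 in T-like cells, and −0.045 in dendritic-like cells, −0.37 in neutrophil-like cells and −0.054 in cells over 20% mt-. With no scaling, the median mt- UMIs per cell were lower in telmisartan in each of these sets. In control and telmisartan they were 711 and 589 in macrophage-like, 281 and 228 in T-like and 462 and 393.5 in dendritic-like cells. They were 29.5 and 22.5 in neutrophil-like cells and 661 and 591 over 20%. Each value rests on 1 pool per group, and the difference between the sets was not tested.

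Cells with fewer than 150 genes, which the gene limits leave out, carried mostly mt- UMIs. Their median mt- percent was 79.5 in control and 78.3 in telmisartan.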

How the results depend on the processing

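No paired analysis was possible because each group is 1 pool and the mice within it were not tagged separately. The planned shares of mitochondrial rRNA in mt- UMIs were not run, since the table has no rRNA column. Keeping mt- genes for clustering, counting cluster 4 as macrophage-like a limit of 10% for macrophage-like cells, no gene limits for the log2 ratios of cells over to under 20% and the 8 alternatives for each gene's share were chosen after seeing the data. In each of those 8, every one of the 13 share log2 ratios kept its direction, from −0.25 to −0.23 for mt-Nd4, from −0.34 to −0.27 for mt-Nd4l, from −0.25 to −0.22 for mt-Nd5, from −0.14 to −0.13 for mt-Cytb and from 0.06 to 0.08 for mt-Co1.

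Of the main values, 28 moved by less than their counting interval, 53 moved by more and 3 reversed; for single genes 109 did not move, 8 moved and 0 reversed. That tally of single genes covers the low-count filter and the alternatives for shares, not the scalings. All 13 genes passed that filter, so dropping it could not move their values, and these are counted among those that did not move. As UMIs per cell in macrophage-like cells the 8 genes higher in CPM were lower, and mt-Atp8 turned to 0.00 with totals without mt- and ribosomal protein genes and as the mean per 10000 UMIs. For those that moved or reversed, the cause was not tested, beyond the stricter limits changing which cells count.

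A tag share of 90% gave 7.53% mt- UMIs in control and 8.13% in telmisartan cells at or under the limit, and 36.6% and 49.4% of cells over it. With at least 500 genes, 14.1% and 23.2% of cells were over the limit, and the log2 ratios of cells over to under it became 0.23 and 0.41 for mt- and −2.35 and −2.08 for nuclear UMIs per cell. A limit of 10% gave 6.36% and 6.41% mt- UMIs under it, 50.7% and 65.5% of cells over it, and log2 ratios of 0.21 and 0.37 for mt- and −2.09 and −2.16 for nuclear UMIs. Without gene limits 41.0% and 52.6% of cells were over 20%, and the log2 ratios became −0.082 (reversed) and 0.15 for mt- and −3.93 and −3.37 for nuclear UMIs, or by medians −0.26 (reversed) and 0.082, and −4.94 and −4.01. As the mean of each cell's percent, mt- UMIs were 8.14% and 8.90%, and with the highest Scrublet scores removed 7.42% and 8.04%. Medians in place of means gave log2 ratios of 0.00 and 0.21 for mt- and −4.43 and −3.70 for nuclear UMIs.

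The summed mt- log2 ratio in macrophage-like cells (0.11) reversed to −0.22 per cell with no scaling, where 13 genes were lower in place of 5. It was 0.12 without doublet removal, at resolution 0.3, with mt- genes kept, with cluster 4 counted, with totals without mt- and ribosomal protein genes and with cells thinned to 1000 UMIs, 0.13 as the mean per 10000 UMIs and 0.11 at resolution 0.8. With a limit of 10% it was 0.024, with 7 genes lower.

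The mt- percent of macrophage-like cells became 7.49 in control and 8.15 in telmisartan both at resolution 0.3 and with mt- genes kept, and 7.97 in telmisartan at resolution 0.8. That of T-like cells became 7.97 and 9.02 at resolution 0.8, and 7.97 and 9.22 with mt- genes kept. These are other sets of cells, 43 and 44 in place of 180. In both clusterings 137 cells led by genes such as Gzma and Prf1 stayed unnamed. Those cells did not lack T markers, as 10 passed the fold used for naming, where 3 were needed.

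With 1 pool per group, differences between mice, handling and treatment cannot be told apart. Nuclear-encoded depth differed between the pools and the sets of cells. With cells thinned to 1000 UMIs the summed mt- log2 ratio was 0.12 in macrophage-like cells and 0.12 in all cells at or under 20%. Cells over 20% were thinned to 500 UMIs, which gave −0.08. At this depth mt-Nd6 and mt-Atp8 gave few UMIs per cell, and small cell types (24 neutrophil-like telmisartan cells) gave wide intervals.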

Other observations

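Cells whose tag reads were split between the pools had shares between those of the pools for 11 of 13 mt- genes. The others were mt-Nd1 (4.52%, against 4.59% in control and 4.54% in telmisartan) and mt-Nd2 (3.38%, against 3.35% and 3.35%). Of mt- UMIs, mt-Nd4 made up 5.76% in the 1459 split-tag cells within the gene limits, 6.27% in all control and 5.44% in all telmisartan cells within them. For mt-Co1 the values were 36.1%, 35.4% and 36.6%, and for mt-Nd4l 0.655%, 0.719% and 0.591%. Of the split-tag cells, 35.5% had over 20% mt- UMIs.

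Cells under 150 genes, all of them over 20% mt-, numbered 963 in control and 940 in telmisartan and had medians of 404 and 391 mt- UMIs beside 118 and 121 nuclear-encoded ones. Their mt-Nd4 share was 6.61% in control and 6.07% in telmisartan, and that of mt-Co1 34.5% and 35.1%, so the telmisartan pool was lower for mt-Nd4 and higher for mt-Co1 in these cells too.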
